A study of Mus musculus with 15 samples.

Results

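The pancreatic carboxypeptidases, chymotrypsinogens and elastases were followed through 8 genes of the mouse count table, out of 25292 genes in all. The genes were chosen by symbol, by matching each gene ID to the GENCODE mouse M21 annotation. No measured value was used as a filter, but the choice was made with earlier results of these data known. Cpa1 and Cpb1 encode carboxypeptidases, Ctrb1, Ctrc and Ctrl encode chymotrypsinogen-type enzymes, and Cela1, Cela2a and Cela3b encode elastases. All 8 had enough reads to be tested among the 16245 genes that passed the filter on low counts.

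Poly(A) RNA was sequenced in 15 libraries, 3 for each of 5 groups, to ask how loss or block of S1pr2, a receptor for the signalling lipid sphingosine-1-phosphate, changes the developing pancreas. Mice were of the C57/Bl6J strain, as the labels write it. The wt and S1pr2 null groups were whole pancreata taken at 14.5 days post coitum (dpc), the null carrying the S1pr2tm1Rlp allele by the methods of the study. The other 3 groups were wild-type explants of 14.5 dpc, dorsal buds by those methods, cultured on filters at an air-liquid interface (ALI) for 2 days in serum-free medium. They received no compound beyond solvent (control), 15 μM JTE013, an S1pr2 antagonist (JTE), or 15 μM JTE013 with 50 ng/ml connective tissue growth factor (JTE + CTGF). Each library pooled tissue from up to 3 embryos of like genotype or treatment, so differences between single embryos are averaged, and no group received CTGF without JTE013.

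Acinar cells make these enzymes as inactive precursors, the zymogens, which are stored in granules and activated in the gut. Carboxypeptidases remove single residues from the carboxyl end of a peptide, while chymotrypsins and elastases are serine proteases that cut inside the chain. In the embryo Cpa1 already marks the multipotent progenitors at the tips of the branching epithelium, and other enzymes follow as acinar cells mature. PTF1, a complex of Ptf1a with Rbpjl, binds a paired site in promoters of acinar enzymes, made of an E-box (CANNTG) and a TC-box (TTTCCC).

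The 8 genes were separated into early and late enzymes by their level at 14.5 dpc. A gene was called early if every wt library held at least 1000 normalised reads of it, which are counts scaled to a common library size. Cpa1, Ctrb1 and Cela1 were early, with lowest wt values of 21834, 31694 and 2602. Cpb1, Cela2a, Cela3b, Ctrc and Ctrl were late, with lowest wt values of 82.8, 125, 103, 20.1 and 7.51. Cela1 was the nearest early gene to the threshold, and Cela2a was the nearest late one. The split used the wt libraries, so the wt levels of either class are a description.

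Of the 8 genes, 7 had a promoter sequence in RefSeq, which covers 300 bases around the gene start on GRCm38.p6, most of them upstream. Those of the 3 early enzymes and of 2 late enzymes are shown because the early promoters held a CANNTG and a TTTCCC no more than 25 bases apart. Capitals mark every CANNTG and every TTTCCC, the latter read on both strands, so that GGGAAA is its reverse complement.
Cpa1 (chr6:30638968-30639267, plus strand): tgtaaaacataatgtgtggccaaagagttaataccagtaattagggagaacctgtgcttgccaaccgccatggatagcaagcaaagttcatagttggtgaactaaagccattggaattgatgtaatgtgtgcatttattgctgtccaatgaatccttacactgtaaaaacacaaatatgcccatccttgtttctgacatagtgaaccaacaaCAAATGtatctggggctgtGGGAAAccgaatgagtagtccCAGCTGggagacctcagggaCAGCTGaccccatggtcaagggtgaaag
Ctrb1 (chr8:111690961-111691260, minus strand): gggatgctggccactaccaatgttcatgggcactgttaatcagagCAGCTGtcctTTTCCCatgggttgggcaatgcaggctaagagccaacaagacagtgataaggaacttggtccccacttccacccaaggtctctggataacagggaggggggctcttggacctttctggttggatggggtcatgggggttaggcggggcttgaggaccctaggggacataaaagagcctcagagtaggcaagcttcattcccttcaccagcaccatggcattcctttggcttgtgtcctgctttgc
Cela1 (chr15:100687871-100688170, minus strand): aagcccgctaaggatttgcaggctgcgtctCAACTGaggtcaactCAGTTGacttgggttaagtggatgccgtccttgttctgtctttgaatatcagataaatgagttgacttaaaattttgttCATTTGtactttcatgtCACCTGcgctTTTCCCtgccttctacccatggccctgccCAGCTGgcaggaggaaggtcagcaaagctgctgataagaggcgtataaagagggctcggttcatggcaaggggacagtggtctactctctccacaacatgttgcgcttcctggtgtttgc
Cpb1 (chr3:20275684-20275983, minus strand): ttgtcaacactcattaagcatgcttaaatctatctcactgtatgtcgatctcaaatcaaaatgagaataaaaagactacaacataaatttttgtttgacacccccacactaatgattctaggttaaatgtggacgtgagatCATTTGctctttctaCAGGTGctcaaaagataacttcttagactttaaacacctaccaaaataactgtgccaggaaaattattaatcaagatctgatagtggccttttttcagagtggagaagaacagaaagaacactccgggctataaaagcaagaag
Cela2a (chr4:141825956-141826255, minus strand): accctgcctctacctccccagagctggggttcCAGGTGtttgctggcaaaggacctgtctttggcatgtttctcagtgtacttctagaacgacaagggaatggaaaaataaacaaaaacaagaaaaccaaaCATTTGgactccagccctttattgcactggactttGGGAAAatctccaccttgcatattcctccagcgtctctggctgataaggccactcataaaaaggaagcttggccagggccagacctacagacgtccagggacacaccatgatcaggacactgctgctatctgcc
In Ctrb1 and Cela1 the closest pair lay 4 bases apart, and in Cpa1 it lay 13 bases apart. Cpa1 held 2 such pairs, Ctrb1 held 1 and Cela1 held 3. No pair was found in Cpb1, Ctrl, Cela2a or Cela3b. In Cela2a, however, a CANNTG and a TTTCCC lay only a few bases beyond the limit of 25. A slightly wider limit would count it, so the split between early and late promoters rests in part on the cut-off. Across 32851 mouse promoters of the same length, 72.3% held a CANNTG, 25.2% a TTTCCC and 5.63% a pair at this spacing. The motif letters and the spacing were chosen with these promoters in view, and a match of letters is a description of sequence, not of binding.

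All coordinates are in mm10. Cpa1 (ENSMUSG00000054446) lies at chr6:30639218-30645363 on the plus strand, and the other 7 genes are on minus strands. Cpb1 (ENSMUSG00000011463) spans chr3:20248264-20275733. Ctrb1 (ENSMUSG00000031957) at chr8:111686510-111691010 and Ctrl (ENSMUSG00000031896) at chr8:105931994-105933862 share a chromosome, and Cela1 (ENSMUSG00000023031) lies at chr15:100674425-100687920. Cela3b (ENSMUSG00000023433), Cela2a (ENSMUSG00000058579) and Ctrc (ENSMUSG00000062478) are on chromosome 4, at chr4:137420999-137430540, chr4:141814962-141826160 and chr4:141814962-141846359. The annotated Ctrc gene runs over the whole of Cela2a and shares 305 exon bases with it, which is 21.4% of Ctrc exon sequence and 17.7% of that of Cela2a. Both also share 94 exon bases with Casp9, a protease gene of cell death on the opposite strand. How reads in shared exons were assigned is not stated. Ctrc had only 5 reads in control 3, where Cela2a had 5426, so few reads of Cela2a were counted for Ctrc there. Reads lost from either gene cannot be seen in the counts, so Ctrc and Cela2a values are uncertain throughout. Cela3b has 19.2% of its 50-base words in common with its paralogue Cela3a, and Cpa1, Cpb1, Ctrb1, Ctrl and Cela1 have none in common with another gene.

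Depth was similar across the libraries, at 11402804 to 13828737 reads assigned to genes, and the biological coefficient of variation was 7.3%. S1pr2 itself had 766 ± 5.87 normalised reads in wt and 1358 ± 97.6 in the libraries labelled S1pr2 null (SD, n = 3 each), so that the transcript was not lower there. By the methods of the study the allele carries a cassette inserted in the first exon. Counts per gene do not show whether a transcript is intact, so they do not check the label, on which directions for those libraries rest. The paper reports from a western blot that S1pr2 protein was absent in null pancreata of the same age as those sequenced. That blot does not check the sequenced libraries one by one. The acinar factors Ptf1a, Rbpjl and Bhlha15 had at least 330, 1511 and 350 normalised reads in every library. Libraries 3 of the control and JTE groups stood apart, since each was the lowest of its group for all 8 enzymes. Control 3 held from 2.52% (Ctrc) to 76% (Cpa1) of the mean of controls 1 and 2. JTE 3 held from 26.4% (Cela3b) to 61% (Ctrb1) of the mean of JTE 1 and 2. The other 23 pancreatic hydrolases on a fixed list were also lowest there, 23 of 23 in both groups, and their sums were 66.5% in control 3 and 48.5% in JTE 3. The summed epithelial markers were at 91.7% and 81.1%, mesenchyme markers at 104% and 119% and erythroid markers at 228% and 220%. Where control 3 and JTE 3 are left out together below, they were picked for these low enzyme values. The spread narrows by that choice, so calls and adjusted p-values of that setting are descriptions and not support. In whole tissue, fewer acinar cells and less RNA per acinar cell cannot be told apart, and this holds for each result that follows.

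Ctrb1 had the highest mean of the 8 per kilobase of exon in every group, followed by Cpa1, and the gap was smallest in the libraries labelled S1pr2 null (9009 against 5882). Together the 8 genes took 0.49% to 0.871% of all reads in wt libraries and 0.165% to 0.177% in those labelled S1pr2 null. In culture they took 4.08% to 5.29% in control, 4.19% to 7.04% in JTE and 7.39% to 8.27% in JTE + CTGF. Ctrb1 alone made up 6.29% to 7.01% of all reads in JTE + CTGF. In wt pancreata the mean normalised reads per kilobase were 54573 for Ctrb1, 14653 for Cpa1 and 2650 for Cela1. Cela2a (94.9), Cela3b (93.6), Ctrc (58.1), Cpb1 (42.5) and Ctrl (9.79) were all far lower. In control explants the order by mean became Ctrb1 (588641), Cpa1 (51081), Cela2a (5570), Cela1 (4646), Cpb1 (1129), Cela3b (1096), Ctrl (122) and Ctrc (97.6).

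**Figure D1:**
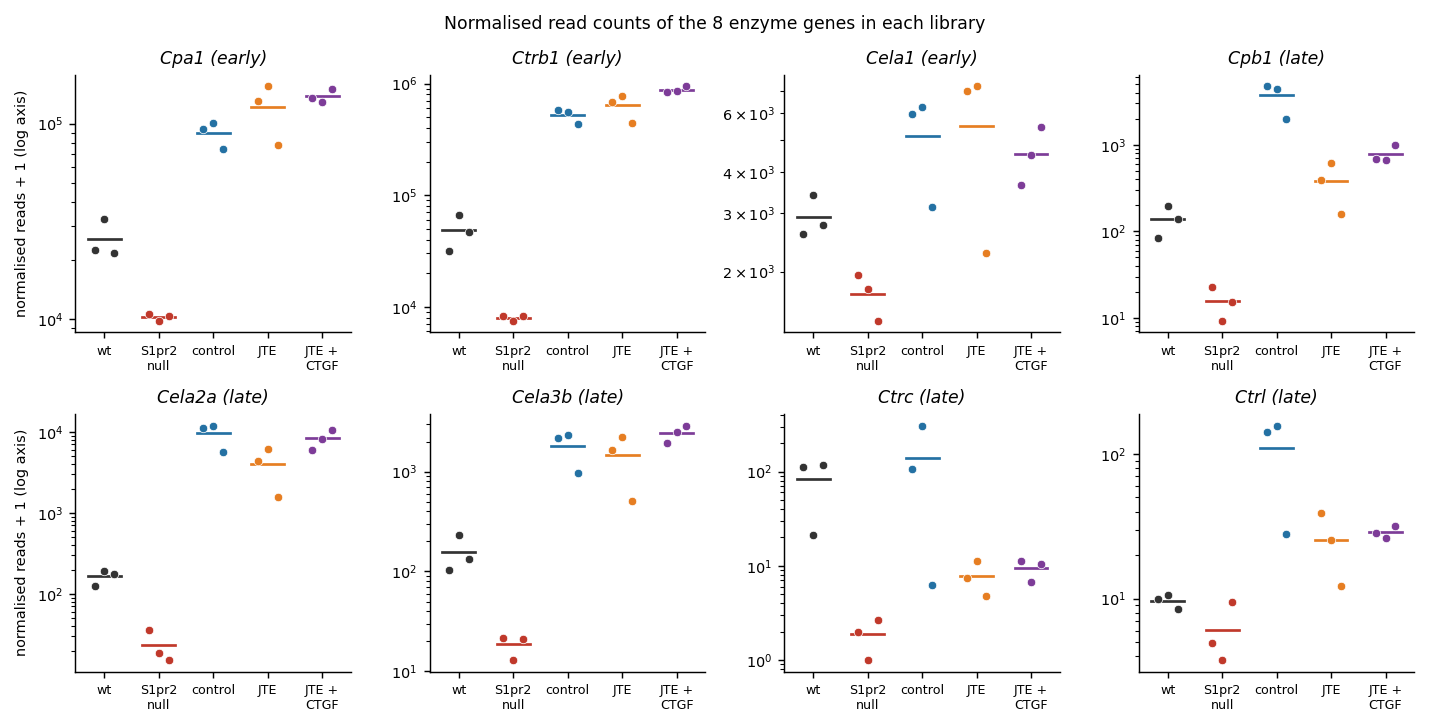
Normalised reads plus 1 (vertical axis, log scale with a separate range in each panel) of the 8 enzyme genes in wt, S1pr2 null (as labelled), control, JTE and JTE + CTGF libraries. Points are single libraries 1 to 3 from left to right and bars are group means. Cpb1 lies lower in all 3 JTE libraries than in any control library, and control 3 and JTE 3 are the lowest of their groups in every panel.

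The control explants were compared with wt pancreata to ask how the enzymes changed between 14.5 dpc and the end of culture. Culture, time and the use of dorsal buds differ together between these groups and cannot be told apart. Of the 8 enzymes 7 rose and none fell, where 28.5% of all genes tested were called higher and 29.3% lower. The late enzymes Cela2a, Cpb1, Ctrl and Cela3b rose by 58.8-fold, 26.7-fold, 12.3-fold and 11.8-fold. Among the early enzymes Ctrb1 rose 10.8-fold, Cpa1 3.49-fold and Cela1 1.75-fold.

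Cela2a, an elastase that prefers large hydrophobic residues, had 125, 193 and 173 normalised reads in the wt libraries and 11167, 11972 and 5651 in control. Every control library was above every wt library, and the log2 fold change was 5.88 ± 0.45 (SE, edgeR adjusted p = 1.06e-08). Cpb1, which removes basic residues, had 82.8, 197 and 139 in wt and 4739, 4419 and 1966 in control. The groups did not overlap either (4.74 ± 0.41 SE, edgeR adjusted p = 4.13e-08).

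Ctrb1, the main chymotrypsinogen, had 31694, 66305 and 47221 normalised reads in wt and 580967, 554833 and 430572 in control, again with no overlap (3.43 ± 0.22 SE, edgeR adjusted p = 1.44e-09). Cpa1 went from 22528, 32565 and 21834 to 93428, 100868 and 73876 (1.8 ± 0.19 SE, edgeR adjusted p = 5.74e-07). Cela3b went from 103, 232 and 133 to 2174, 2336 and 965 (3.56 ± 0.46 SE, edgeR adjusted p = 4.43e-06). For these 3 genes the lowest control library exceeded the highest wt library.

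Ctrl, a chymotrypsin-like protease, had only 10, 10 and 8 reads in wt, counted before normalisation, and 133, 155 and 26 in control (3.62 ± 0.55 SE, edgeR adjusted p = 2.7e-05). Cela1, an elastase made by mouse acinar cells, had 2602, 3403 and 2764 normalised reads in wt and 5973, 6274 and 3125 in control. Control 3 fell within the wt range, and the rise (0.81 ± 0.32 SE, edgeR adjusted p = 0.0375) was lost with DESeq2 (adjusted p = 0.0814) and when wt 1, wt 3, control 1 or control 2 was left out (edgeR adjusted p = 0.11, 0.0966, 0.111 and 0.135). Without both control 3 and JTE 3 it was 1.06 (edgeR adjusted p = 2.35e-06), with the limit on that setting given above.

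Ctrc, a chymotrypsin that also cleaves trypsinogen and trypsin, was the exception. Its counts were 124, 21 and 125 reads in wt and 100, 305 and 5 in control, so that the groups overlapped (0.75 ± 0.67 SE, edgeR adjusted p = 0.354). Library wt 2 was the highest of its group for the other 7 enzymes and the lowest for Ctrc. Without control 3 the log2 difference of Ctrc was 1.31 (edgeR adjusted p = 0.0217), and without control 2 it was −0.58 (0.489), so its direction rested on single libraries. Casp9, which shares exon bases with it, had 546 to 559 reads in wt and 508 to 543 in control.

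All 21 tested genes of the other hydrolases also rose in control explants, with a median log2 fold change of 3.97 against −0.02 over all genes tested and 3.49 over the 8 enzymes. The lowest adjusted p-values were those of Try5, a trypsinogen (5.85), and Rnase1, a secreted ribonuclease (7.50), with edgeR adjusted p of 5.65e-12 and 1.17e-11. Of the zymogen granule and inhibitor genes, 8 of 8 rose, led by Gatm, an enzyme of creatine synthesis abundant in acinar cells (2.22, edgeR adjusted p = 2.39e-10), and the granule membrane gene Cuzd1 (5.92, edgeR adjusted p = 1.73e-08). The acinar transcription factors did not rise together. Of 6, Ptf1a rose (0.59, edgeR adjusted p = 0.0116), while Rbpj, the Notch effector, and Nr5a2, a nuclear receptor, fell by 1.63 and 0.51 on the log2 scale (edgeR adjusted p = 2.34e-09 and 1.28e-04). Epithelial markers were higher in 3 of 5 genes, with sums of 22662 to 24658 in wt and 31766 to 36022 in control. Erythroid markers were lower for 7 of 7 genes, with sums of 14064 to 16677 in wt and 172 to 446 in control, and macrophage and leukocyte markers were higher for 4 of 5. Duct markers were higher for 5 of 7, and endocrine markers higher for 3 and lower for 1 of 7. Endothelial markers were higher for 1 and lower for 3 of 5, and mast cell markers higher for 1 and lower for 3 of 4. Mesenchyme markers were higher for 3 and lower for 3 of 8, and liver markers lower for 2 of 4. The part of these shifts in the enzyme values was not tested.

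**Figure D2:**
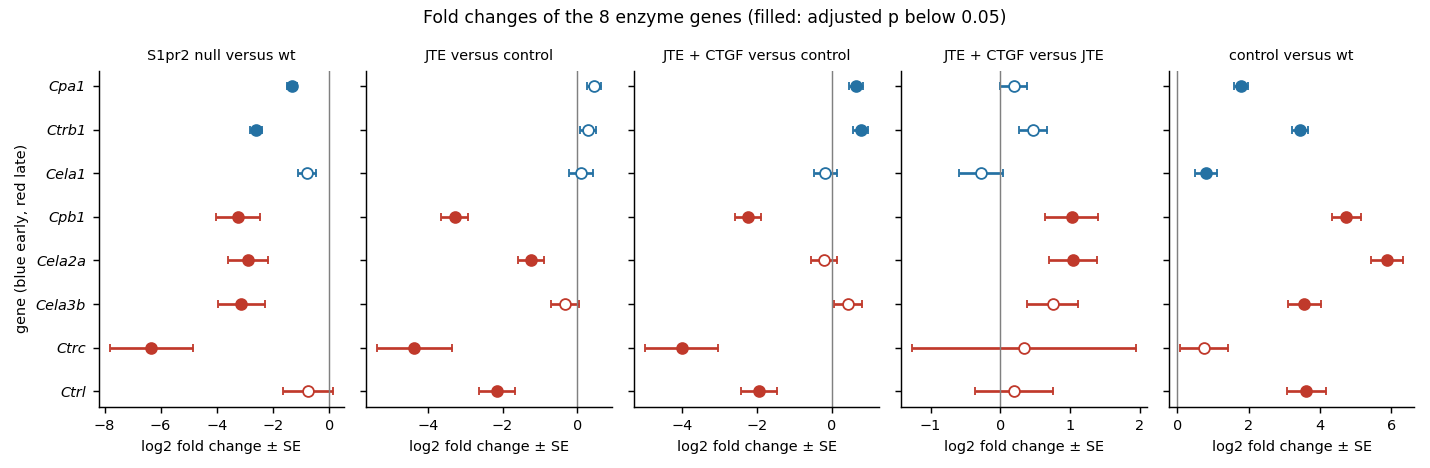
Log2 fold changes (horizontal axes, a separate range in each panel) with their standard errors for the 8 enzyme genes in 5 comparisons, from the fit over 15 libraries. Blue marks the 3 early and red the 5 late enzymes, and filled points passed an adjusted p of 0.05. In JTE versus control, 4 late enzymes are filled below 0 and the 3 early ones are open points above 0.

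The libraries labelled S1pr2 null were compared with wt to ask which enzymes depend on the receptor in the embryo. Of the 8 enzymes 6 fell and none rose, where 13.3% of all genes tested were called lower and 12.6% higher. The falls came in both classes. Cpb1, Cela3b, Cela2a and Ctrb1 were 9.45-fold, 8.75-fold, 7.4-fold and 6.06-fold lower, and Cpa1 was 2.49-fold lower. For 7 of the 8 enzymes every library labelled null was below every wt library, the exception being Ctrl, and 23.8% of all genes tested were lower without overlap in the same way.

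The libraries labelled null had 8188, 7497 and 8288 normalised reads of Ctrb1, and the lowest wt library was 31694 (−2.60 ± 0.22 SE, edgeR adjusted p = 3.77e-07). Cpa1 had 10678, 9836 and 10368 against a lowest wt value of 21834 (−1.32 ± 0.19 SE, edgeR adjusted p = 1.08e-04). The null libraries lay close together for both, with coefficients of variation of 5.39% and 4.14%, while those of wt were 35.8% and 23.4%.

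The late enzymes were near the limit of counting in these libraries. Cpb1 had 21.6, 8.31 and 14.3 normalised reads (−3.24 ± 0.79 SE, edgeR adjusted p = 0.00591) and Cela2a had 35.3, 17.5 and 14.3 (−2.89 ± 0.71 SE, edgeR adjusted p = 0.00646). Cela3b had 20.6, 12 and 20.2 (−3.13 ± 0.84 SE, edgeR adjusted p = 0.0109), a call that was lost without wt 2 (−2.73, adjusted p = 0.0563). Ctrc was represented by 1, 0 and 2 reads against 270 in the 3 wt libraries together. By reads it was 92-fold lower, with an exact 95% interval of 31.1 to 449 that covers counting error only (edgeR adjusted p = 0.00372).

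Neither Cela1 nor Ctrl passed the threshold. Cela1 had 1946, 1767 and 1421 normalised reads, all below the wt libraries (−0.77 ± 0.32 SE, edgeR adjusted p = 0.0891). It passed when only the 6 libraries of this comparison were fitted (adjusted p = 4.18e-05), without a filter on low counts (0.00254) and without JTE 3 (0.00626), which is not part of this comparison. Ctrl had 4, 3 and 10 reads, and its difference of −0.74 ± 0.88 (SE, edgeR adjusted p = 0.575) was not detectable at this depth.

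The median log2 fold change over the 8 enzymes was −2.74 and that over all genes tested was −0.01. Of the other 21 hydrolases tested 13 fell and none rose, with a median of −1.97, led by the lipase-related Pnliprp1 (−2.71, edgeR adjusted p = 1.87e-06). The trypsin inhibitor Spink1 and the serpin Serpini2 were the 2 of 8 granule and inhibitor genes that fell, by 2.15 and 2.20 on the log2 scale (edgeR adjusted p = 1.6e-06 and 5.42e-05). All 6 acinar transcription factors fell. Bhlha15, a factor of secretory cell maturation, had 1018, 1884 and 1442 normalised reads in wt and 362, 350 and 476 in the libraries labelled null (−1.86 ± 0.21 SE, edgeR adjusted p = 9.41e-06). Rbpjl changed by −1.48 (edgeR adjusted p = 7.3e-04) and Ptf1a by −0.89 (edgeR adjusted p = 0.00319), while Nr5a2 changed by −0.26 (edgeR adjusted p = 0.0406). Epithelial markers were lower as well, 4 of 5, with sums of 16703 to 17642 against 22662 to 24658 in wt, and endocrine markers were lower for 6 of 7 genes. Mesenchyme markers were higher for 4 and lower for 2 of 8, mast cell markers lower for 4 of 4, erythroid markers higher for 2 and lower for 3 of 7, duct markers lower for 2 of 7 and liver markers lower for 2 of 4, and no endothelial or macrophage and leukocyte marker of 5 each was called. The part of these cell-type shifts in the enzyme values was not tested.

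JTE explants were compared with control explants to ask what acute block of the receptor does in culture. Of the 8 enzymes 4 fell and none rose, where 26.2% of all genes tested were called lower and 25.9% higher. All 4 were late enzymes, namely Cpb1, Cela2a, Ctrl and Ctrc. None of the early enzymes passed the threshold, and their estimates lay above 0. Only for Cpb1 did the 2 groups of libraries not overlap, where 28.3% of all genes tested were lower without overlap. The median log2 fold change over the 8 enzymes was −0.79 and that over all genes was 0.

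Cpb1 had 386, 612 and 158 normalised reads in JTE against 4739, 4419 and 1966 in control, a 9.7-fold difference (−3.28 ± 0.36 SE, edgeR adjusted p = 1.27e-06). Without both control 3 and JTE 3 it was −3.20. Cela2a had 4375, 6141 and 1590 in JTE, and its highest value exceeded control 3, at 5651 (−1.25 ± 0.35 SE, edgeR adjusted p = 0.00614). Without both library 3 samples its difference was −1.14 and still passed the threshold.

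Ctrl had 36, 24 and 12 reads in JTE against 133, 155 and 26 in control (−2.15 ± 0.47 SE, edgeR adjusted p = 0.00105), and JTE 1 lay above control 3. Ctrc had 6, 10 and 4 reads against 100, 305 and 5 (−4.36 ± 0.99 SE, edgeR adjusted p = 0.00132), and here too control 3 lay within the JTE range. Without both library 3 samples the differences were −2.25 and −4.62, and both passed the threshold.

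Cela3b, the remaining late enzyme, had 1654, 2219 and 512 normalised reads in JTE against 2174, 2336 and 965 in control, and no call was made (−0.33 ± 0.37 SE, edgeR adjusted p = 0.484). Without JTE 3 it was 0.09 (0.812). Part of its sequence is shared with Cela3a, as given above.

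The early enzymes had high values in JTE 1 and JTE 2 and low values in JTE 3. Cpa1 had 130779, 155358 and 77471 normalised reads in JTE, where JTE 1 and 2 exceeded every control library (0.44 ± 0.19 SE, edgeR adjusted p = 0.0601). It passed the threshold without JTE 3 (0.68, adjusted p = 5.99e-04), without control 2 (0.53, 0.0489), without wt 2 (0.44, 0.0406), without a filter on low counts (0.45, 0.00173) and without both library 3 samples (0.56, 0.00241). Ctrb1 had 686831, 778858 and 447205 (0.29 ± 0.20 SE, edgeR adjusted p = 0.25), and it passed without JTE 3 (0.49, 0.0365). Cela1 had 6999, 7244 and 2272 (0.10 ± 0.31 SE, edgeR adjusted p = 0.808), and leaving out control 3 (−0.16, 0.714), JTE 1 (−0.11, 0.826) or JTE 2 (−0.15, 0.753) turned the sign of this value.

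The other hydrolases also moved in both directions, with 10 lower and 2 higher of 21 and a median of −0.41. Rnase1 fell from 2397, 2315 and 1095 normalised reads in control to 344, 386 and 321 (−2.47 ± 0.20 SE, edgeR adjusted p = 4.4e-08). The trypsinogen Prss1 fell from 8199, 8352 and 3260 to 712, 1117 and 244 (−3.26 ± 0.40 SE, edgeR adjusted p = 4.09e-06). Of the granule and inhibitor genes 4 of 8 fell and 1 rose, with Gatm (−1.24, edgeR adjusted p = 2.03e-07) and Cuzd1 (−2.54, edgeR adjusted p = 5.44e-06) among the lower ones.

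Of the 6 acinar transcription factors, Ptf1a rose and the others did not pass the threshold. Ptf1a had 1163, 1068 and 825 normalised reads in control and 1873, 2085 and 1491 in JTE, with no overlap (0.83 ± 0.18 SE, edgeR adjusted p = 7.91e-04). Rbpjl (0.32 ± 0.26 SE, edgeR adjusted p = 0.326), Bhlha15 (0.37 ± 0.19 SE, 0.119) and Nr5a2 (0.07 ± 0.09 SE, 0.58) did not pass, and Rbpjl was 7075, 6592 and 2607 in the 3 JTE libraries. Beside these values, epithelial markers were lower for 4 of 5 genes (sums of 20080 to 25194 in JTE and 31766 to 36022 in control), duct markers for 5 of 7 and endocrine markers for 7 of 7. Endothelial markers were lower for 4 of 5 genes, macrophage and leukocyte markers for 5 of 5 and mast cell markers for 2 of 4, mesenchyme markers were higher for 2 and lower for 1 of 8, none of 7 erythroid markers was called, and the single intestine and stomach gene tested of 8 was lower. The part of these shifts in the enzyme values was not tested.

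**Figure D3:**
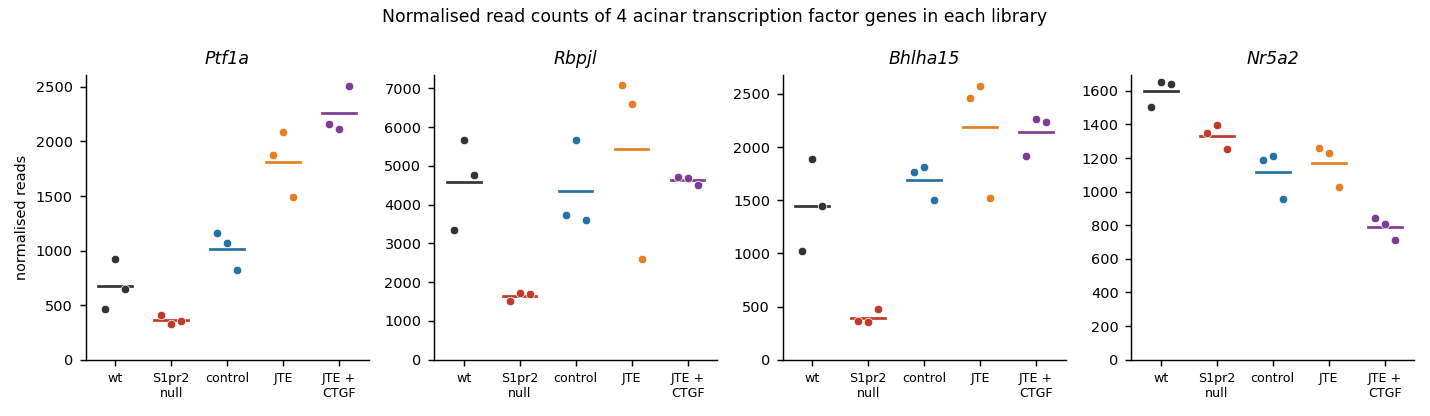
Normalised reads (vertical axes, starting at 0) of Ptf1a, Rbpjl, Bhlha15 and Nr5a2 in wt, S1pr2 null (as labelled), control, JTE and JTE + CTGF libraries. Points are libraries 1 to 3 from left to right and bars are group means. Ptf1a lies above the control libraries in all 6 libraries that received JTE013, and Bhlha15 and Rbpjl are lowest in the libraries labelled S1pr2 null.

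JTE + CTGF explants were compared with the same control libraries and with the JTE libraries, to ask what CTGF adds when the receptor is blocked. Against control 2 enzymes rose and 3 fell, where 28.1% of all genes tested were called higher and 33% lower. The early enzymes Ctrb1 and Cpa1 were 1.69-fold and 1.55-fold higher, and the late enzymes Ctrc, Cpb1 and Ctrl were 16.3-fold, 4.77-fold and 3.88-fold lower. Cela1, Cela2a and Cela3b did not pass the threshold. As this comparison shares its control libraries with the one before, the values are not independent of each other.

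Ctrb1 had 838067, 866185 and 946701 normalised reads in JTE + CTGF, all above the highest control library at 580967 (0.76 ± 0.21 SE, edgeR adjusted p = 0.00407). Cpa1 had 135210, 129803 and 149670, above the highest control library at 100868 (0.63 ± 0.19 SE, edgeR adjusted p = 0.00828). Cpb1 had 685, 666 and 984, below the lowest control library at 1966 (−2.25 ± 0.34 SE, edgeR adjusted p = 2.33e-05). Among the 8 enzymes these 3 were the ones whose libraries did not overlap between the groups, where 30.4% of all genes tested were higher and 34.4% lower without overlap.

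Ctrl had 24, 22 and 26 reads (−1.96 ± 0.48 SE, edgeR adjusted p = 0.00183) and Ctrc had 9, 5 and 8 (−4.02, edgeR adjusted p = 0.00185), and for both it was control 3 alone that was not above the treated libraries. Cela2a had 6038, 8167 and 10681 normalised reads (−0.21 ± 0.34 SE, edgeR adjusted p = 0.613) and Cela1 had 3656, 4482 and 5463 (−0.18 ± 0.32 SE, 0.645). Both passed the threshold on the lower side without both library 3 samples (−0.47, adjusted p = 0.0276, and −0.42, 0.0124). Those samples were picked for their low enzyme values, so this is not support for a fall. Cela3b had 1924, 2520 and 2894 (0.42 ± 0.37 SE, edgeR adjusted p = 0.332).

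Among the other 21 hydrolases 4 rose and 10 fell. Try5 rose from 11927, 10692 and 8563 normalised reads in control to 47920, 32763 and 48671 (2.05 ± 0.20 SE, edgeR adjusted p = 1.38e-07), whereas Prss1 fell (−3.30, edgeR adjusted p = 2.5e-06). Of the granule genes Gp2, a membrane glycoprotein of zymogen granules, rose (1.32, edgeR adjusted p = 1.98e-04) and Gatm fell (−0.94, edgeR adjusted p = 2.4e-06). Ptf1a had 2163, 2114 and 2505 normalised reads, above every control library (1.15 ± 0.18 SE, edgeR adjusted p = 2.77e-05), and Nr5a2 fell (−0.50, edgeR adjusted p = 2.16e-04). Epithelial markers were lower for 4 of 5 genes and duct markers for 7 of 7, and erythroid markers were higher for 6 of 7. Endocrine markers were lower for 6 of 7, macrophage and leukocyte markers for 5 of 5, mast cell markers for 2 of 4 and liver markers for 2 of 4, endothelial markers were lower for 4 and higher for 1 of 5, mesenchyme markers lower for 2 and higher for 2 of 8, and the part of these shifts was not tested.

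Against JTE alone, 2 late enzymes were called higher in JTE + CTGF and none lower, where 13.6% of all genes tested were called higher and 16.8% lower. Cpb1 was 2.03-fold higher (1.02 ± 0.38 SE, edgeR adjusted p = 0.0477), and every JTE + CTGF library lay above the highest JTE library at 612. Cela2a was 2.06-fold higher (1.04 ± 0.35 SE, edgeR adjusted p = 0.0314), though JTE 2 at 6141 overlapped the treated libraries. Both calls were lost with DESeq2 (adjusted p = 0.144 and 0.0745) and with only the 6 libraries of the comparison (0.0607 and 0.0737), and Cpb1 kept its call in 5 and Cela2a in 12 of 15 leave-one-out fits. Without JTE 3, Cpb1 was at 0.68 (adjusted p = 0.132), while without both control 3 and JTE 3 Cpb1 (0.66, 0.0218) and Cela2a (0.68, 0.00825) passed with smaller differences and Cela1 was lower (−0.63, 0.00166). Erythroid markers were higher for 5 of 7 genes in JTE + CTGF than in JTE, with sums of 1335 to 2251 against 226 to 610, and of the epithelial, duct, endocrine and endothelial markers 1 each was higher and 1 lower. Of the mesenchyme markers 1 of 8 was lower, of the mast cell and liver markers 1 of 4 each was higher, and no macrophage and leukocyte marker was called. The part of these shifts was not tested.

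The other 6 enzymes did not pass the threshold against JTE. Ctrb1 (0.47 ± 0.20 SE, edgeR adjusted p = 0.0929) was higher in every JTE + CTGF library than in any JTE library, and it passed without JTE 2 (0.64, 0.0433), without wt 1 (0.47, 0.0387) and without wt 2 (0.47, 0.0442). Cela3b was at 0.75 ± 0.37 (SE, edgeR adjusted p = 0.141) and passed without JTE 2 (1.18, 0.0347). Cela1 was at −0.28 (0.547) and passed on the lower side without JTE 3 (−0.61, 0.0361). Cpa1 (0.19, edgeR adjusted p = 0.486), Ctrl (0.20, 0.828) and Ctrc (0.34, 0.898) showed no detectable difference. Of the other hydrolases 4 rose and 2 fell, with Rnase1 (1.54, edgeR adjusted p = 3.64e-05) and Try5 (1.08, 4.2e-04) higher, and of the granule and inhibitor genes Cuzd1 (1.79, 7.48e-04) and Spink1 (0.63, 0.0128) were higher.

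The order of the 5 groups differed between the enzymes. Cpb1 was the only one of the 8 for which every step in the order passed the threshold, from S1pr2 null as labelled through wt, JTE and JTE + CTGF to control. Its step from JTE to JTE + CTGF was lost under the settings given above, and the step from wt to JTE was not run under them. The wt and JTE libraries of Cpb1 overlapped, although their difference passed (1.46 ± 0.45 SE, edgeR adjusted p = 0.0085). Cpa1 and Ctrb1 rose from null to wt and from wt to control, and the 3 cultured groups showed no detectable step between neighbours. Cela2a rose from null to wt, from wt to JTE (4.63 ± 0.44 SE, edgeR adjusted p = 7.73e-08) and from JTE to JTE + CTGF, which did not differ detectably from control. Cela3b was ordered null, wt, then the cultured groups without a detectable difference between neighbours. For Cela1 no neighbouring step passed. Ctrl showed a single step, from JTE + CTGF to control. Ctrc also showed a single step, from JTE + CTGF to wt (3.28 ± 1.03 SE, edgeR adjusted p = 0.00878), with null and JTE below it and control above.

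Ratios of enzymes within a library do not depend on its depth and are given as descriptions. The log2 ratio of the summed late to the summed early enzymes, in normalised reads per kilobase, was −7.87 ± 0.26 in wt, −8.95 ± 0.42 in the libraries labelled S1pr2 null, −6.40 ± 0.42 in control, −8.05 ± 0.61 in JTE and −7.39 ± 0.29 in JTE + CTGF (SD, n = 3 each). The late enzymes thus made up 0.84% to 1.44% of the summed enzymes per kilobase in control and 0.234% to 0.523% in JTE. The lowest control library, control 3 at −6.88, was above the highest JTE + CTGF library at −7.13, and the highest JTE library at −7.57 lay within the range of JTE + CTGF. Ctrb1 dominates the denominator, and without it the ratios were −2.87 in control and −4.61 in JTE. Cela2a, whose values are uncertain as given above, made up most of the late sum in these groups. Its mean per kilobase was 5570 in control, where Cpb1 came next at 1129, and 2342 in JTE, where Cela3b came next at 878.

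Ratios were also taken between pairs of enzymes. Per 1000 Cpa1 reads, each per kilobase, Cpb1 had 27, 23.3 and 14.2 in control and 1.57, 2.1 and 1.09 in JTE. It had 2.7, 2.74 and 3.5 in JTE + CTGF, within or close to the 1.96, 3.23 and 3.39 of wt, and 1.08, 0.45 and 0.735 in the libraries labelled null. Cela2a per Cela1 was 1.2, 1.22 and 1.16 in control, 0.4, 0.543 and 0.448 in JTE and 1.06, 1.17 and 1.25 in JTE + CTGF. In wt it was 0.0308, 0.0362 and 0.04 and in the libraries labelled null 0.0116, 0.00635 and 0.00644. Library 3 of the control and JTE groups, low for both elastases, lay close to its group in this ratio.

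The ratio of Ctrb1 to Cpa1, both early enzymes, separated fresh from cultured tissue. It was 2.78, 4.02 and 4.27 in wt and 1.51, 1.5 and 1.58 in the libraries labelled null. In culture it was 10.9 to 12.3 in control, 9.89 to 11.4 in JTE and 12.2 to 13.2 in JTE + CTGF. Control and JTE overlapped in this ratio.

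**Figure D4:**
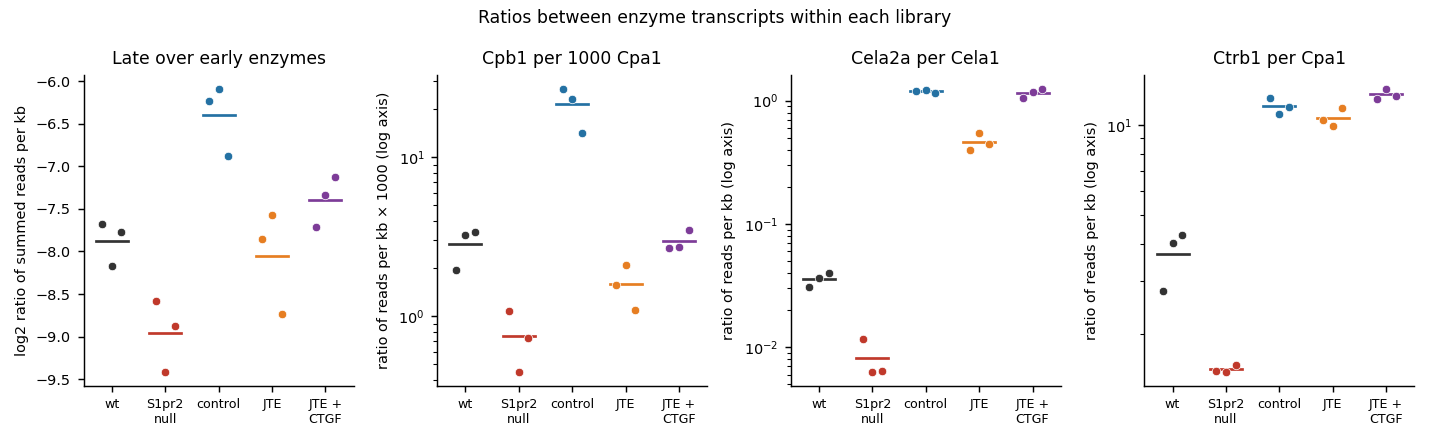
Ratios between enzyme transcripts in each library, from normalised reads per kilobase of exon. The first panel shows the log2 ratio of the 5 late to the 3 early enzymes, and the other panels show Cpb1 per 1000 Cpa1, Cela2a per Cela1 and Ctrb1 per Cpa1 on log axes, with points for libraries 1 to 3 from left to right and bars for group means. Control lies highest in the first 2 panels, and Cela2a per Cela1 is 0.4 to 0.543 in JTE against 1.06 to 1.25 in JTE + CTGF.

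The genes whose pattern was most like that of the enzymes were found by Pearson correlation of log2 CPM over the 15 libraries, with group differences included. For the mean of the early enzymes these included Lpcat3, a phospholipid acyltransferase (0.994), Yipf2 (0.994), Clps, the colipase (0.994), and Coq8a (0.992). For the mean of the late enzymes they were Mal2 (0.984), Ggh, a folate hydrolase (0.983), Erp44 (0.981) and Erp27 (0.98), both proteins of the endoplasmic reticulum, and Gm10334 (0.979). Erp27 had 233, 388 and 282 normalised reads in wt and 46.1, 37.9 and 53.8 in the libraries labelled null. It had 1716, 1661 and 1110 in control, 514, 571 and 273 in JTE and 615, 649 and 678 in JTE + CTGF. The points share their libraries and control 3 and JTE 3 are among them.

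Carboxypeptidases known from other cell types moved in both directions. Of 11 tested, 2 rose and 4 fell in the libraries labelled S1pr2 null, 1 rose and 6 fell in JTE and 2 rose and 6 fell in JTE + CTGF against control. Cpe, which processes peptide hormones in endocrine cells, fell in the libraries labelled null (−1.02, edgeR adjusted p = 1.36e-08) and was higher in control than in wt (0.92, edgeR adjusted p = 2.35e-09). Cpz, an extracellular carboxypeptidase, was lower in control than in wt (−2.76, edgeR adjusted p = 7.09e-11). Cpn1 and Cpb2, plasma carboxypeptidases made in liver, fell in JTE (−1.13, edgeR adjusted p = 1.12e-07, and −2.12, 6.72e-06). The liver markers were lower in JTE for 4 of 4 genes, and whether these falls are linked was not tested.

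Genes that lie within 5000 bases of an enzyme gene were measured beside it. Pskh1, a kinase gene 215 bases from Ctrl, changed by 0.23 in JTE against control (edgeR adjusted p = 4.62e-04), where Ctrl changed by −2.15. Psmb10, a proteasome subunit gene 1865 bases from Ctrl, changed by −0.71 (edgeR adjusted p = 1.44e-04). Galnt6, 3892 bases from Cela1, changed by −1.04 (edgeR adjusted p = 4.9e-04), where Cela1 changed by 0.10. Casp9, which overlaps Ctrc and Cela2a, changed by 0.31 (edgeR adjusted p = 3.23e-04), where those fell. The antisense genes Gm16156 and Ctrcos had at most 4 reads in any library.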

How the data were processed

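Libraries were prepared with a strand-specific poly(A) kit from RNA of integrity number 8 or more. The authors aligned single-end reads to mm10 with GSNAP and deposited raw counts of uniquely aligned reads per Ensembl gene, made with featureCounts 1.4.6 and neither normalised nor pooled. Whether counting used the strand is not given in the sources used here. Groups and replicate numbers came from the sample titles, and every column was mapped to 1 sample (0 not mapped). Symbols from GENCODE M21 were found for 24750 of 25292 gene IDs.

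For testing, edgeR 4.0.16 in R 4.3.3 was applied to the counts with its quasi-likelihood F-test, TMM factors and filterByExpr. The 15 libraries entered a single model with 1 coefficient for each group. Adjustment followed Benjamini and Hochberg over 16245 genes, and a gene was called at an adjusted p below 0.05. Fold changes are first group over second group, and standard errors belong to the log2 fold change. Normalised reads are counts divided by the TMM-scaled library size relative to its mean. With totals of 11402804 to 13828737 reads, genes of about 3 reads per library are at the counting floor. P-values measure the spread between pooled samples of up to 3 embryos.

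No general pairing by replicate number was found. Of 30 correlations of deviations between same-numbered libraries 2 exceeded 0.1, with a highest of 0.248. Of 60 between libraries of different number 3 did, with a highest of 0.165. Control 3 and JTE 3 deviated together, as given above, and a tally over all groups cannot tell whether they are paired. The chi-square per gene between replicates of a group ran from 1.98 to 17.1, so no library was a repeat of another in its group. Libraries of different groups were not compared in this way. Alternatives were RLE factors, DESeq2 1.42.0, no filter on low counts, library sizes without the 8 enzymes, only the libraries compared, a replicate block, the criterion of the study, each library left out in turn and, added after seeing the data, control 3 and JTE 3 left out together. The test was tried on counts simulated with the same spread for all genes, narrower than that of the 8 enzymes in control and JTE. That trial therefore does not give error rates for these enzymes. Sequences were read from RefSeq tables in Python 3.11.15 and plots were drawn with matplotlib 3.10.9.

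The enzymes, gene lists, motifs and tests were chosen with earlier results of these data known. All 8 enzymes were named in each comparison. From the lists of hydrolases, granule and inhibitor genes, acinar transcription factors and other carboxypeptidases, Ptf1a, Rbpjl, Nr5a2, Bhlha15 and the 2 called genes of lowest adjusted p were eligible, with the 5 genes of most similar pattern per class and the neighbouring genes. A gene that these rules name is not reported here.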

Additional observations from a re-analysis of the deposited data

Results flagged for a closer look

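The response to JTE013 in culture, as JTE minus control, was set against the response in the embryo, as S1pr2 null as labelled minus wt, by an interaction contrast that uses no library in both differences. Of the 8 enzymes 3 differed, all with the JTE response above that of the libraries labelled null, where 21.5% of all genes tested were called higher in this contrast. The difference was 2.89 ± 0.29 (SE, edgeR adjusted p = 1.14e-06) for Ctrb1, with responses of 0.29 in JTE and −2.60 in the libraries labelled null. It was 1.76 ± 0.27 (SE, edgeR adjusted p = 6.47e-05) for Cpa1, with responses of 0.44 and −1.32. For Cela3b it was 2.80 ± 0.95 (SE, edgeR adjusted p = 0.0243), and this call was lost without wt 2 (2.41, 0.0742) and without null 2 (2.59, 0.062).

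For Cpb1 the responses were −3.28 and −3.24, and their difference of −0.04 ± 1.04 (SE, edgeR adjusted p = 0.987) has a standard error too large to show that they were alike. Cela2a (1.64, 0.125), Cela1 (0.88, 0.128), Ctrc (1.97, 0.559) and Ctrl (−1.41, 0.294) did not pass the threshold. Without control 3 and JTE 3, 6 enzymes differed, with Cela1 (1.00, 5.2e-04), Cela2a (1.75, 0.0042) and Ctrl (−1.50, 0.023) added. These libraries were picked for their low enzyme values, and the share of all genes called without them is not given. The larger count is therefore not a result about the enzymes. Drug and genotype, culture and fresh tissue, and dorsal bud and whole pancreas differ together between these responses and cannot be told apart. Of the other 21 hydrolases 9 had a higher JTE response and none a lower one, led by Try5 (2.93, edgeR adjusted p = 9.67e-06) and Pnliprp1 (2.41, edgeR adjusted p = 4.31e-05), and the 6 acinar transcription factors all did, from Nr5a2 (0.33, edgeR adjusted p = 0.0497) to Bhlha15 (2.23, edgeR adjusted p = 1.09e-05).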

How the results depend on the processing

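RLE factors and library sizes without the 8 enzymes changed none of their calls, and shifted log2 fold changes by at most 0.031. The criterion of the study asks for an adjusted p of at most 0.1 and a mean above 100 normalised reads in either group. It also asks for a fold below 0.6 or above 1.6. By the edgeR values, Cela1 in null against wt met it (0.585-fold, edgeR adjusted p = 0.0891). Ctrc in null against wt (wt mean 83) and Cpa1 in JTE + CTGF against control (1.55-fold) did not. In JTE + CTGF against JTE the count of called enzymes was 2, and it was 4 without a filter on low counts, 0 with DESeq2 and 0 with only the libraries compared. In the contrast of the JTE response with that of the libraries labelled S1pr2 null it was 3, and it was 5 without the filter and 6 without control 3 and JTE 3, the alternative chosen after seeing the data. That alternative also turned 3 differences with no call, namely Cpa1 (−0.0324) and Ctrl (−0.15) in JTE + CTGF against JTE and Cpb1 in the contrast of responses (0.0475). Shares of all genes called are given for the main fit only. Changes in the count of called enzymes under other settings are therefore not results about the enzymes.

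With the replicate block, which uses numbers that were not found to pair the libraries, 6, 5, 5, 3, 7 and 3 enzymes were called, in the order null against wt, JTE against control, JTE + CTGF against control, JTE + CTGF against JTE, control against wt and the contrast of responses. Cpa1 in JTE against control (0.42, adjusted p = 0.0429) and Cela3b in JTE + CTGF against JTE (0.93, 0.0383) passed with it, and no other call changed.

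Leaving out 1 library at a time, the counts ran from 5 to 7, 4 to 6, 5 to 5, 0 to 4, 6 to 8 and 2 to 5 in that order. The sign turned for Ctrc in control against wt (−0.58 to 1.31), which was called higher without control 3. Signs also turned, with no call on either side, for Cpb1 in the contrast of responses (−0.55 to 0.35). The same held for Cela1 (−0.16 to 0.48) and Cela3b (−0.76 to 0.0854) in JTE against control, and for Cpa1 (−0.0131 to 0.41) and Ctrl (−0.13 to 0.65) in JTE + CTGF against JTE. The late-to-early ratio ran from −7.97 to −7.73 in wt, −9.14 to −8.73 in null, −6.56 to −6.17 in control, −8.29 to −7.71 in JTE and −7.53 to −7.24 in JTE + CTGF.

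Without Ctrb1 that ratio was −5.85, −7.81, −2.87, −4.61 and −3.69 in the same order of groups, and without division by length −7.11, −8.42, −5.40, −7.19 and −6.50. The cause of these changes was not tested beyond what each setting removes. Low counts limited Ctrc, Ctrl and, in the libraries labelled null, all 5 late enzymes.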
